A study of Mus musculus with 4 samples.

Results

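The difference between the effects of streptozotocin (STZ) in 2 sorted islet cell populations was described gene by gene. For each gene, the STZ effect was log2 of (FPKM after STZ plus 1) over (control FPKM plus 1), taken separately in the Glut2L and the Glut2H gate, and the Glut2H effect was then subtracted from the Glut2L effect. FPKM are fragments per kilobase of transcript, corrected for how many were mapped. Members had a status of OK in all 4 libraries, at least 10 FPKM in at least 1 of them, a locus of at least 300 bp, and no symbol of a predicted gene or small RNA. Of the 39170 rows of the table, 7695 met this rule, 7501 of them protein-coding.

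Islets were taken from male MIP-GFP C57BL/6 mice of 6 to 8 weeks, in which green fluorescent protein is driven by the mouse insulin 1 promoter, with 3 mice in each group. Islet cells positive for insulin were sorted on Glut2, a glucose transporter whose gene is Slc2a2, into a gate of high (Glut2H) and a gate of low signal (Glut2L). Glut2H control and Glut2L control cells came from mice given citrate vehicle, and Glut2H STZ and Glut2L STZ cells from mice given 200 mg/kg of STZ into the peritoneum and found diabetic 4 days later. Total RNA was depleted of ribosomal RNA and sequenced as strand-marked libraries, with 1 library per group. All 4 groups carry the MIP-GFP transgene, and the sources used here do not say whether RNA of mice was pooled. Without replicates no difference could be tested, and each value describes these 4 libraries.

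STZ is a glucose analogue that carries an alkylating nitrosourea group and enters beta cells through Glut2. Inside the cell it alkylates DNA, which activates poly(ADP-ribose) polymerase, draws down NAD and starts the p53 response to DNA damage. Cells with less Glut2 take up less of it. A difference of effects near 0 says that STZ and control libraries differed alike in both gates. A negative one says that the ratio of STZ to control was lower in Glut2L. A value in parentheses after the FPKM of a gene is this difference, on the log2 scale.

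The labels were checked first. Slc2a2 stood at 40.96 and 33.7 FPKM (control, then STZ, as in all pairs below) in the libraries labelled Glut2L and at 8.74 and 10.8 in those labelled Glut2H, so its transcript was higher in the gate labelled low, and each gate is named here as the library is labelled. Ins2 stood at 294540.0 and 175841 FPKM in Glut2L and 57345 and 52596 in Glut2H, and Ins1 at 30842 and 20766 in Glut2L, 8955 and 8471 in Glut2H. Insulin transcripts were therefore high in every library and highest in the Glut2L control. RNA of other cell types was present as well. Summed over 23 macrophage genes, the levels were 144 and 186 FPKM in the Glut2L control and STZ libraries, against 4029 and 4474 in Glut2H. The summed FPKM of all rows were 1654280 and 1562040 in Glut2L and 2935080 and 3428740 in Glut2H, where the short predicted gene Gm20594, which is not a member, took 61.0% and 68.5%. The number of reads is unknown. In bulk libraries like these, fewer cells of a type and less RNA per cell cannot be told apart.

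The effects of STZ in the gates were almost unrelated across genes. The median effect was -0.04 in Glut2L and -0.04 in Glut2H, and the difference had a median of -0.00 with quartiles of -0.50 and 0.47. Pearson's r between the effects of the gates over the 7695 genes was 0.04, a description across genes of 1 set of libraries. STZ levels were at least 2-fold higher in Glut2L for 396 genes (5.15%) and at least 2-fold lower for 500 (6.5%). In Glut2H the counts were 488 (6.34%) and 573 (7.45%). Only 60 genes (0.78%) were at least 2-fold higher in both gates, and 72 (0.936%) at least 2-fold lower in both.

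A difference of effects of at least 1 in size, that is 2-fold, was found for 1772 genes, or 23% of the members. It was at least 1 for 859 (11.2%) and -1 or lower for 913 (11.9%), and below 0 for 50.3%. These shares are the background against which each gene list below is read. Rescaling FPKM to an equal sum over the members moved the median difference of all genes to 0.34 and the share of positive differences among the calls from 48.5% to 71.4%. Rescaling over all rows moved them to 0.28 and 66.9%. Setting the median effect of the members to 0 in each gate left them at -0.01 and 48.3%. The sum over the members depends much on Ins2. It was 811341 FPKM in the Glut2L control and 605161 in Glut2L STZ, of which Ins2 made 294540 and 175841. In Glut2H it was 463139 and 451221, of which Ins2 made 57345 and 52596.

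Among the 1772 genes, those with an effect of at least 1 in size in a single gate and under 0.5 in the other were counted as responding in that gate only. There were 343 such genes in Glut2L (4.46%), of which 153 were higher after STZ (1.99%) and 190 lower (2.47%). In Glut2H there were 440 (5.72%), of which 199 were higher (2.59%) and 241 lower (3.13%). Effects of at least 0.5 in size and opposite sign were found for 558 genes (7.25%). Of these, 258 were higher after STZ in Glut2L and lower in Glut2H (3.35%), and 300 the reverse (3.9%). A further 98 (1.27%) had effects of the same sign and 333 (4.33%) fell in none of these classes. In the 258 genes that were higher in Glut2L, Glut2H had the higher level in control mice for 207 and Glut2L after STZ for 204, so the order of the gates turned in 153. In the 300 genes of the reverse kind the order turned in 198. The difference of effects is also the change in the gap between the gates from control to STZ. Choosing genes by it favours a turned order, so these counts only describe the chosen genes.

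**Figure D1:**
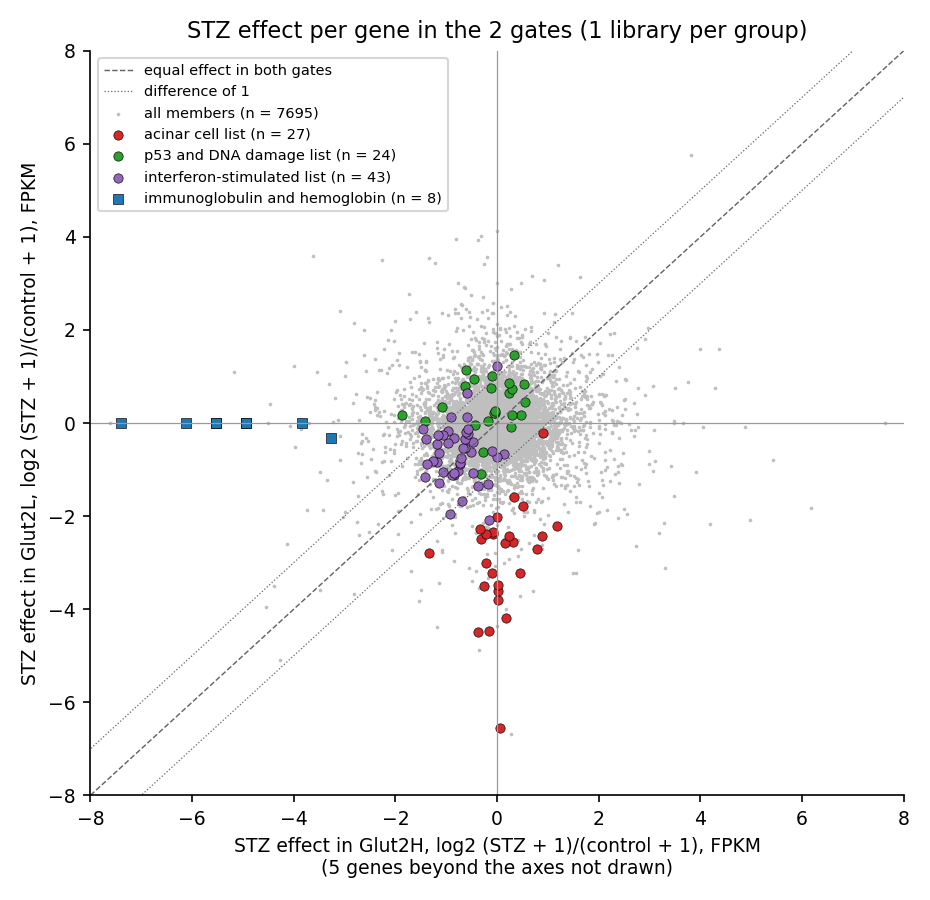
STZ effect in Glut2L (vertical axis) against the effect in Glut2H (horizontal axis), both as log2 of FPKM plus 1, for 7695 genes with 1 library per group. The 27 acinar genes lie below 0 on the vertical axis, from -6.56 to -0.22 (Spink3), and between -1.34 and 1.18 on the horizontal axis. The 8 immunoglobulin and hemoglobin genes lie at the left near 0 on the vertical axis. Of the 43 interferon genes, 38 lie below 0 in both gates, as do 2225 of all 7695 members.

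Gene lists for 58 pathways and cell types were then compared. Of their 1496 symbols, 1482 were found in the table and 1038 were members. Of 55 lists with at least 3 members, 6 had a median difference of at least 0.5 in size. The acinar, serotonin pathway, stromal and endothelial lists were below 0, and the Notch and pancreatic progenitor lists above it. The other 49 lists had medians closer to 0. Medians are given at the deposited scale. Rescaling to an equal sum over the members, which moved the median of all genes to 0.34, turned the sign of 23 of the 55. All 23 were between -0.30 and -0.00 as deposited. Setting the median effect of the members to 0 in each gate turned 0 of the 55. A median in that range therefore gives no direction that holds at every scaling.

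**Figure D2:**
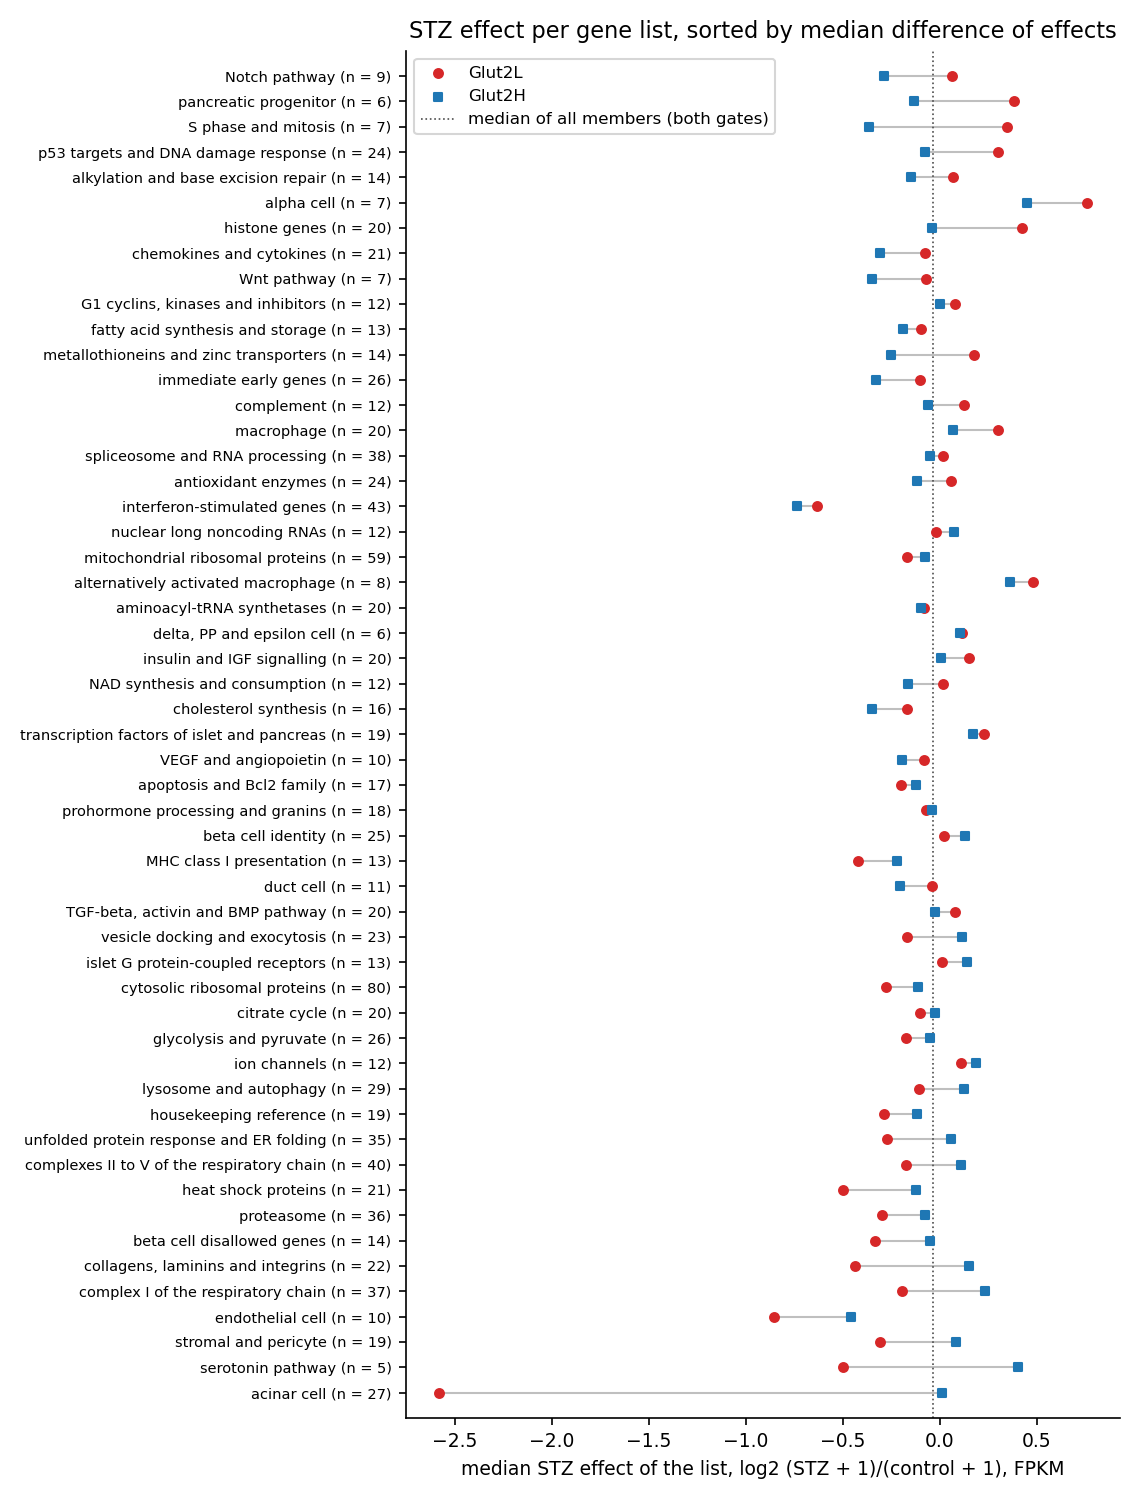
Median STZ effect of each gene list with at least 5 members in Glut2L (circles) and Glut2H (squares), as log2 of FPKM plus 1, sorted by the median difference. The acinar list is the widest apart, with -2.58 in Glut2L and 0.01 in Glut2H, and the interferon list is low in both gates, at -0.63 and -0.74.

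Acinar genes gave the widest contrast among the lists with at least 5 members. Acinar cells of the exocrine pancreas make digestive enzymes under the control of Ptf1a, a basic helix-loop-helix factor. Of 40 symbols in the table, 27 were members, and all 27 had a difference of -1 or lower, against 11.9% of all members. In Glut2L, 26 of 27 were at least 2-fold lower after STZ, against 6.5% of all members. In Glut2H, 1 was at least 2-fold higher (Try5) and 1 at least 2-fold lower (Pla2g1b). The median difference was -2.87, from effects of -2.58 in Glut2L and 0.01 in Glut2H, and it lay between -3.05 and -2.21 over the 12 alternative settings. The summed level of the 40 genes stood at 4518 and 583 FPKM in the Glut2L control and STZ libraries and at 5771 and 6328 in Glut2H. A single library, Glut2L STZ, was thus low, and the 3 others lay within 4518 to 6328 FPKM.

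Digestive enzymes of several kinds were low in the Glut2L STZ library. Clps, the colipase that anchors pancreatic lipase, stood at 540.2 and 4.75 FPKM in Glut2L and 487 and 506 in Glut2H, a difference of -6.61, in a gene whose span holds a small RNA gene. Cel, the bile salt-activated lipase, stood at 147 and 7.03 in Glut2L, 146 and 166 in Glut2H (-4.38), though its deposited locus runs past the annotated gene. Pancreatic lipase, Pnlip, stood at 329 and 22.7 in Glut2L, 443 and 446 in Glut2H (-3.81). For each of these, the Glut2L control library was near the level of the Glut2H libraries, and the Glut2L STZ library alone was low. Among proteases, the chymotrypsin-like Ctrl was at 132 and 5.03 in Glut2L, 190.4 and 170.5 in Glut2H (-4.30), and the elastase Cela2a at 241 and 18.9 in Glut2L, 401 and 408 in Glut2H (-3.62). The trypsin gene Prss2 stood at 417 and 63.1 in Glut2L and 469 and 804 in Glut2H, so it was also higher after STZ in Glut2H (-3.48). Trypsins and amylases have near-identical copies whose reads the counting could share, and Prss1 and Amy2a5 were listed at 0 in all 4 libraries. Spink3, a trypsin inhibitor, was the member not at least 2-fold lower in Glut2L, at 29.98 and 25.6 FPKM. It stood at 32.9 and 61.9 in Glut2H, which gives the smallest difference of the list (-1.11). Ptf1a itself was below the member rule, at 0 in both Glut2L libraries and at 0.198 and 2.45 FPKM in Glut2H.

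**Figure D3:**
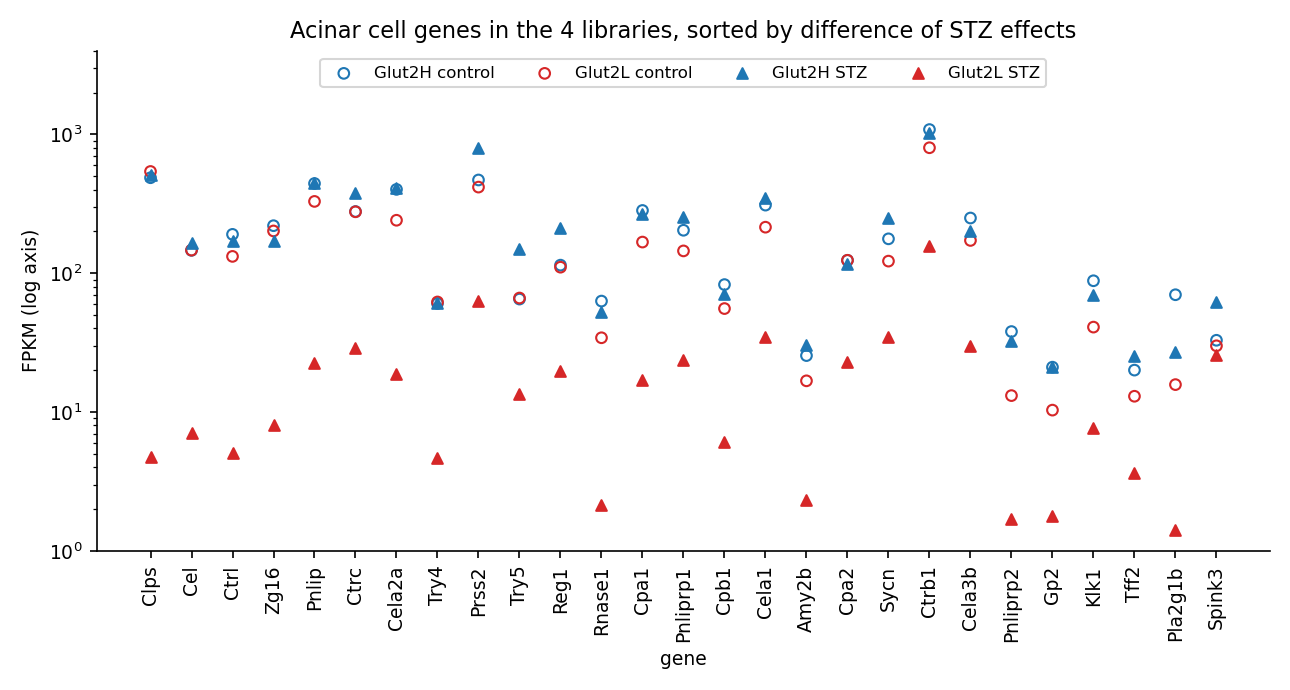
FPKM (log axis) of the 27 acinar genes in the 4 libraries, sorted by the difference of STZ effects. Filled red triangles, the Glut2L STZ library, lie below the 3 other libraries for every gene, closest for Spink3 at 29.98 and 25.6 FPKM in Glut2L.

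The 250 bases before the start site are shown for 4 of these genes, since they move together and share a motif. CACCTG, a form of the E-box CANNTG bound by basic helix-loop-helix factors, was searched on both strands and is in capitals (CAGGTG on the reverse strand). Sequences are from RefSeq on GRCm38.p6, on the strand of the gene. They cover chromosome 2 from 28563404 to 28563653 for Cel, chromosome 8 from 105933863 to 105934112 for Ctrl and chromosome 4 from 141826006 to 141826255 for Cela2a, all on the minus strand, and chromosome 6 from 41521526 to 41521775 for Prss2 on the plus strand.
Cel: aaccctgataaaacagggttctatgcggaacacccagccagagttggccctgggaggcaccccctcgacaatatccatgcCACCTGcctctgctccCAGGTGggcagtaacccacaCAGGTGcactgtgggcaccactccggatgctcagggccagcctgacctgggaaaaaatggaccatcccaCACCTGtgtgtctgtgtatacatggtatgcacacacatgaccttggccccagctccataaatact
Ctrl: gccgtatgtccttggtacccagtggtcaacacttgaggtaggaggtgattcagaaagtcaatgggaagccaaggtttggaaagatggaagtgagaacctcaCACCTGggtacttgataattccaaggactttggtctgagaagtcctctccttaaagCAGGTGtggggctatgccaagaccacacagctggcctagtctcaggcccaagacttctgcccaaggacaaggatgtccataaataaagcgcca
Cela2a: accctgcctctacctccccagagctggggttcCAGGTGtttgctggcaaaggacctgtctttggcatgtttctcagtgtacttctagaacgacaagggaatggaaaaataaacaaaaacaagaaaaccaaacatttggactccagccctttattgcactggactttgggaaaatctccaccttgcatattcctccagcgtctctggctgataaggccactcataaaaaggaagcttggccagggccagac
Prss2: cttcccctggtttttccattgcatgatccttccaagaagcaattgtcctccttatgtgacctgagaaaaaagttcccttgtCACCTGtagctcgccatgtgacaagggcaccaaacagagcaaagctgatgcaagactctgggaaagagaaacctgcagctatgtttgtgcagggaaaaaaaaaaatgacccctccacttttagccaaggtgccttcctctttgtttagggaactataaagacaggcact
CACCTG occurred in 11 of the 20 acinar genes with a sequence (55%), in 14.6% of 5905 members and in 17.1% of 27025 genes. The wider CANNTG occurred in 80%, 55.9% and 66.0%. These shares describe letters in a window and do not show binding.

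The p53 and DNA damage list pointed the other way. The kinase Atm and p53 sense and carry the damage signal, Mdm2 and Mdm4 restrain p53, and its targets stop the cell cycle, repair DNA or start apoptosis. Of its 37 symbols that the table holds, 24 were members. The difference was at least 1 for 8 of 24, against 11.2% of all members, and -1 or lower for 0. The median difference was 0.41, short of the size of 0.5 set for lists above, with medians of 0.30 in Glut2L and -0.08 in Glut2H. Signs were opposite, higher in Glut2L and lower in Glut2H, for 12 of 24, against 1832 of all 7695 members. Within Glut2L 3 members were at least 2-fold higher and 1 lower, against 5.15% and 6.5% of all members. Within Glut2H 0 were higher and 3 lower, against 6.34% and 7.45%.

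The 8 genes came to their differences by different routes. Ccng1, cyclin G1, stood at 33.8 and 94.6 FPKM in Glut2L and 33.1 and 41.9 in Glut2H, higher after STZ mainly in Glut2L (1.13). Ephx1, an epoxide hydrolase, was at 13.6 and 28.3 in Glut2L, 7.31 and 6.804 in Glut2H (1.10). Plk2, a kinase induced by p53, was at 11.5 and 26.6 in Glut2L, 64.8 and 42.2 in Glut2H (1.75). For Plk2 the control libraries were far apart and the STZ libraries close together. The exonuclease gene Aen, at 37.2 and 72.5 in Glut2L, 35.5 and 25.5 in Glut2H (1.41), and Mdm4, at 10.9 and 19.6 in Glut2L, 13.7 and 8.47 in Glut2H (1.42), were higher after STZ in Glut2L and lower in Glut2H.

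For Bbc3, Rrm2b and Atm, the lower value in the Glut2H STZ library made most of the difference. Bbc3, which encodes the BH3-only death protein Puma, stood at 11.9 and 13.5 in Glut2L and 10.9 and 2.25 in Glut2H (2.05). Rrm2b, a ribonucleotide reductase subunit, was at 10.998 and 14.3 in Glut2L, 8.52 and 3.47 in Glut2H (1.44), and Atm at 6.22 and 6.42 in Glut2L, 13.5 and 4.44 in Glut2H (1.45). In these genes the Glut2L libraries were nearly level. Established targets with smaller differences were Cdkn1a, the p21 inhibitor of cyclin-dependent kinases, at 37.7 and 68.6 in Glut2L, 29.9 and 43.8 in Glut2H (0.31), Bax at 44.2 and 81.7 in Glut2L, 57.5 and 67.7 in Glut2H (0.64), and Mdm2 at 49.2 and 81.997 in Glut2L, 75.2 and 92.6 in Glut2H (0.43). All of these were higher after STZ in both gates. Gadd45b was the lowest, at 53.5 and 24.4 in Glut2L, 24.7 and 19.7 in Glut2H (-0.79). The death receptor gene Fas, below the member rule, stood at 1.31 and 8.63 in Glut2L and 4.698 and 0.137 in Glut2H, opposite in direction (4.39).

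**Figure D4:**
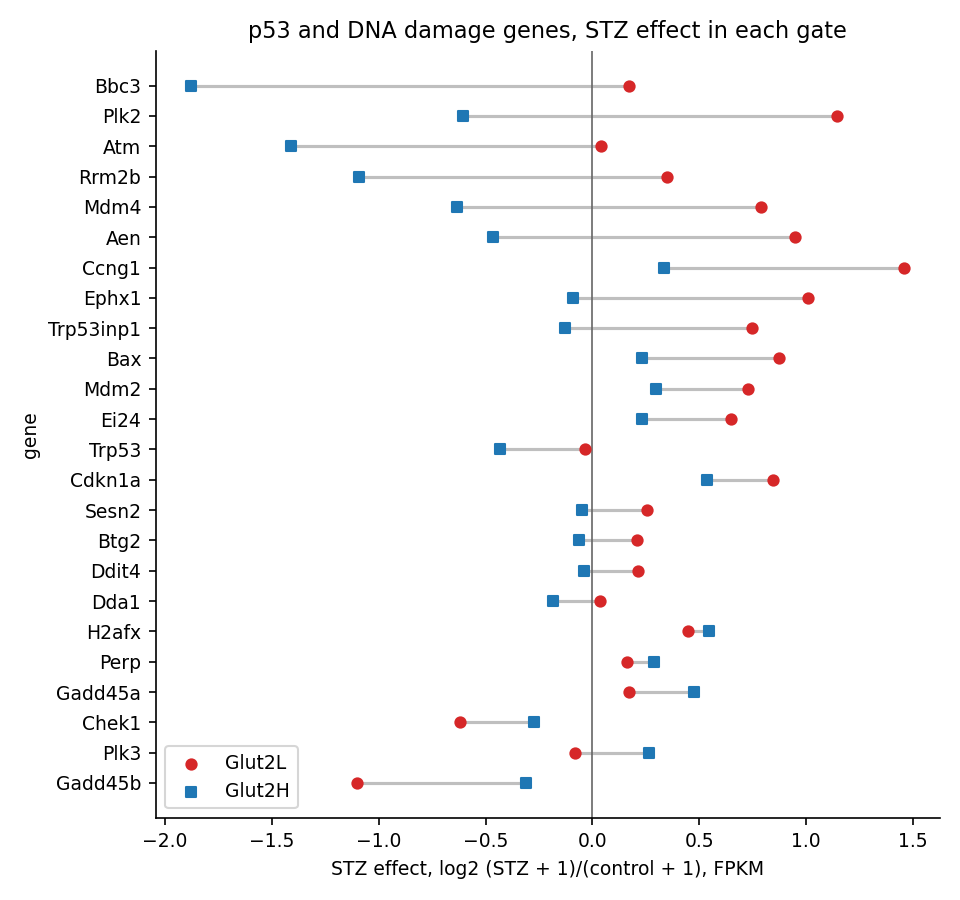
STZ effect (log2 of FPKM plus 1) of the 24 p53 and DNA damage genes in Glut2L (circles) and Glut2H (squares), sorted by their difference. Circles lie to the right of squares for most genes, from Bbc3 (2.05) at the top to Dda1 (0.22), and to the left for the 6 at the bottom, down to Gadd45b (-0.79).

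A p53 half-site, the 10-base recognition element of which a full site has a pair, was searched in the same window. It is shown in capitals for 3 target genes, all on the minus strand of GRCm38.p6: Ccng1 (chromosome 11, 40755287 to 40755536), Bax (chromosome 7, 45466899 to 45467148) and Mdm2 (chromosome 10, 117710759 to 117711008).
Ccng1: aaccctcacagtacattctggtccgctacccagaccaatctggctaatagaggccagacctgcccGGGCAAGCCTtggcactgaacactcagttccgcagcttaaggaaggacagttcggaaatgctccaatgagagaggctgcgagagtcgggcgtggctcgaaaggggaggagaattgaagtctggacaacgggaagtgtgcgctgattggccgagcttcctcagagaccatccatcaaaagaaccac
Bax: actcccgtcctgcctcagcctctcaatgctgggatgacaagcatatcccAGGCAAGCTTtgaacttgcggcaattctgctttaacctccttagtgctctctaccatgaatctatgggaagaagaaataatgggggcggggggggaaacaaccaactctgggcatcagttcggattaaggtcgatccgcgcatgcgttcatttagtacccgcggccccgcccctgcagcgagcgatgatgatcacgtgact
Mdm2: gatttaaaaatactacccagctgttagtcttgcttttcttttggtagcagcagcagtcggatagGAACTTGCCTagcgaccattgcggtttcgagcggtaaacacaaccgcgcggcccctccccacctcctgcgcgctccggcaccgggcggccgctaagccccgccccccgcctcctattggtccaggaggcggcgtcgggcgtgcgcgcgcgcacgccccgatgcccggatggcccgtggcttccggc
The half-site occurred in 7 of 20 genes of the list (35%), in 5.77% of members and in 7.18% of all genes. Alkylation and base excision repair genes, the route that removes STZ lesions, had a median difference of 0.35 over 14 members. The highest was Alkbh3, an alkylation repair dioxygenase, at 19.6 and 43.8 FPKM in Glut2L, 30.8 and 18.9 in Glut2H (1.79), whose deposited locus runs past the gene. Apoptosis and Bcl2 genes had a median of -0.04 over 17 members. The survival gene Bcl2l1, at 28.4 and 17.6 in Glut2L, 17.02 and 26.2 in Glut2H, was lower after STZ in Glut2L and higher in Glut2H (-1.25), and the apoptosis inhibitor Birc3, at 24.7 and 30.6 in Glut2L, 57.01 and 17.2 in Glut2H, was lower in Glut2H (1.97).

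Lower after STZ in Glut2H, with no matching change in Glut2L, were immunoglobulin and hemoglobin genes, which were picked out after their values were seen. Igkc, the constant region of the kappa light chain, stood at 167 and 0 FPKM in Glut2H and was listed at 0 in both Glut2L libraries. Ighm, the IgM heavy chain, was at 39.5 and 3.23 in Glut2H and 0.249 and 0 in Glut2L. All 6 immunoglobulin members and both hemoglobin members, Hba-a1 at 44.98 and 0 and Hbb-bs at 29.6 and 0 in Glut2H, responded in Glut2H only. All 8 are members through the Glut2H control library alone, so they had to differ, and their count supports nothing. The B cell and macrophage genes Ly6d (11.97 and 0), Plac8 (26.4 and 1.93) and Marco (14.7 and 2.57) were likewise lower after STZ in Glut2H. The summed macrophage level in Glut2H was 1.11 times its control level, and the lymphocyte sum, over 20 genes, 0.977 times. The part of B cells or blood in these values was not tested.

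Subunits of the respiratory chain, which makes the ATP that couples glucose to insulin secretion, had small contrasts of the same kind in many genes. Complex I had a median difference of -0.39 over 37 members, from -0.19 in Glut2L and 0.23 in Glut2H, and complexes II to V had -0.26 over 40. Rescaling to an equal sum over the members turned the complexes II to V median to 0.12 and left complex I at -0.01, while the median of all genes went to 0.34. In complex I, 8 of 37 had a difference of -1 or lower and 0 of at least 1, against 11.9% and 11.2% of all members. Lower after STZ in Glut2L and higher in Glut2H were 19 (51.4%), against 24.2% of all members. In complexes II to V the counts were 5, 0 and 23 of 40 (57.5%), where the 5 are near the share of all members. Ndufc1 stood at 89.4 and 38.2 FPKM in Glut2L and 33.2 and 102 in Glut2H (-2.80), with the gates in reversed order after STZ. Ndufv1, a flavin-binding core subunit, was at 76.4 and 39.5 in Glut2L, 19.6 and 30.9 in Glut2H (-1.56), and Sdhc, an anchor of complex II, at 83.3 and 47.1 in Glut2L, 41.02 and 68.8 in Glut2H (-1.54). At the other end were Ndufs4 at 15.5 and 25.9 in Glut2L, 17.1 and 16.3 in Glut2H (0.77) and Atp5o, of the ATP synthase, at 112 and 134 in Glut2L, 123 and 81.3 in Glut2H (0.85). These transcripts are short, with a median length of 704 bases in complex I, and the shortest of 5 length groups of members (1507 genes) had a median difference of -0.09. Setting the median of each of these 5 groups to 0 left -0.30 and -0.22. The 13 mRNAs encoded in mitochondrial DNA were listed at 0 in all 4 libraries and are not members. Mitochondrial ribosomal proteins went both ways, with 6 of 59 at 1 or more and 13 at -1 or lower (median 0.10). Mrps17 stood at 48.4 and 12.5 in Glut2L, 11.3 and 53.997 in Glut2H (-4.03), and Mrps36 at 13.3 and 19.98 in Glut2L, 12.5 and 1.299 in Glut2H (3.10). Cytosolic ribosomal proteins differed least among the large lists, with 1 of 80 past 1 in size (median -0.13).

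Genes of protein folding and turnover were also slightly below 0 in most members. The unfolded protein response list, which senses and refolds misfolded protein in the endoplasmic reticulum, had a median of -0.26 over 35 members, and the proteasome list -0.30 over 36. Both turned to 0.13 and 0.08 with FPKM rescaled to an equal sum over the members, where the median of all genes was 0.34. The difference was below 0 in 85.7% and 77.8% of these members, and 73.7% of the 19 housekeeping genes were below 0 as well (median -0.25). Ddit3, which encodes the stress factor CHOP, stood at 345 and 180.1 FPKM in Glut2L and 84.99 and 91.3 in Glut2H (-1.04). Chac1, a target of the same stress branch, was at 38.9 and 60.3 in Glut2L, 17.2 and 20.1 in Glut2H (0.40), so members of that branch did not go one way. Among proteasome genes, the cap subunit Psmd13 was at 184 and 44.2 in Glut2L, 46.8 and 40.6 in Glut2H (-1.84). The immunoproteasome genes Psme2, at 124 and 237 in Glut2L, 119 and 74.02 in Glut2H (1.61), and Psmb9, at 12.8 and 11.96 in Glut2L, 57.5 and 15.5 in Glut2H (1.73), were at the other end.

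Heat shock genes had more members lower after STZ in Glut2L than higher. Lower by any amount in Glut2L were 15 of 21, against 4097 of all 7695 members and 17 of 19 housekeeping genes. At least 2-fold lower there were 4, against 6.5% of all members. The median difference of the 21 members was -0.27, from -0.50 in Glut2L and -0.12 in Glut2H. With FPKM rescaled to an equal sum over the members it was 0.11, against 0.34 for all genes. Hspb1, a small heat shock protein, stood at 51.8 and 9.21 FPKM in Glut2L, 9.48 and 6.82 in Glut2H (-1.95), and Hspa1b, an inducible Hsp70, at 115 and 24.2 in Glut2L, 29.3 and 15.3 in Glut2H (-1.30). Hspa1a, its near-identical copy, was at 53.3 and 14.2 in Glut2L, 10.4 and 3.92 in Glut2H (-0.63). In these genes the Glut2L control library was the high one. Dnaja1, a cochaperone, went the other way at 83.03 and 94.5 in Glut2L, 54.8 and 29.7 in Glut2H (1.046).

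Interferon-stimulated genes were low after STZ in both gates, with little difference between them. These genes block viral growth and are switched on by interferon signalling. Of 43 members, 38 were lower in both gates, against 2225 of all 7695 members. At least 2-fold lower were 13 in Glut2L (6.5% of all members) and 12 in Glut2H (7.45%). The medians were -0.63 in Glut2L and -0.74 in Glut2H, and the median difference was 0.12. Usp18, a brake on the interferon receptor, stood at 33.7 and 15.8 FPKM in Glut2L and 35.6 and 16.5 in Glut2H (0.02). Rsad2, the antiviral protein viperin, was at 26.3 and 10.2 in Glut2L, 292 and 131 in Glut2H (-0.14). For Rsad2 the gates were far apart in level, yet the STZ library was lower than its control in each. Past a difference of 1 in size were 8 of 43, such as Ifi44 at 6.24 and 0.722 in Glut2L, 16.9 and 15.1 in Glut2H (-1.92), Xaf1 at 83.2 and 32.8 in Glut2L, 115 and 102 in Glut2H (-1.14), Irf9 at 24.9 and 19.3 in Glut2L, 35.5 and 12.9 in Glut2H (1.047) and Mx2 at 6.06 and 5.45 in Glut2L, 31.1 and 10.7 in Glut2H (1.33). MHC class I genes had a median of -0.07 over 13 members, with the peptide transporter gene Tap2 the lowest, at 78.96 and 23.7 in Glut2L, 29.8 and 32.5 in Glut2H (-1.81).

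Beta cell identity genes mostly differed little. None of 25 members was at least 2-fold higher or lower after STZ in either gate, and the median difference was -0.06. Of the 25, 3 had a difference of -1 or lower and 0 of at least 1, against 11.9% and 11.2% of all members. Their summed FPKM, most of it from Ins2, was 0.620 times the control level in Glut2L and 0.945 times in Glut2H. Ffar1, a fatty acid receptor that boosts insulin secretion, stood at 43.8 and 23.2 FPKM in Glut2L and 4.42 and 7.93 in Glut2H (-1.61). G6pc2, which opposes glucokinase, was at 419.98 and 247 in Glut2L, 98.1 and 136 in Glut2H (-1.23), and the peptide hormone gene Ucn3 at 33.5 and 20.1 in Glut2L, 7.79 and 9.75 in Glut2H (-1.001). In each of these, the gates were closer together after STZ than in control mice. Transcription factor genes were near 0, with Pdx1 at 29.2 and 37.5 in Glut2L, 12.2 and 11.5 in Glut2H (0.43), Mafa at 106 and 127 in Glut2L, 48.4 and 47.8 in Glut2H (0.28) and Nkx6-1 at 58.5 and 55.2 in Glut2L, 18.4 and 24.4 in Glut2H (-0.47). Prohormone processing and granin genes had a median of -0.06 over 18 members, with 0 past 1 in size, from Resp18 (-0.66) to Vgf (0.34).

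Glucagon RNA was higher after STZ in both gates. Gcg stood at 4170.0 and 9893 FPKM in Glut2L and 2287 and 4337 in Glut2H, a difference of 0.32, and the medians over 7 alpha cell members were 0.76 and 0.45 in the gates. Ttr, transthyretin, went opposite ways, at 34.8 and 59.6 in Glut2L, 9.11 and 5.82 in Glut2H (1.33). Somatostatin, Sst, at 2366 and 2604 in Glut2L, 1702 and 2157 in Glut2H (-0.20), and pancreatic polypeptide, Ppy, at 4649 and 4962 in Glut2L, 2483 and 2149 in Glut2H (0.30), differed little.

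Serotonin genes, which beta cells use to make and store serotonin beside insulin, had a median of -1.12 over 5 members. Ddc, the decarboxylase that makes it, stood at 116 and 82.03 FPKM in Glut2L and 28.2 and 48.3 in Glut2H (-1.25). Maob, which breaks it down, was at 68.8 and 41.5 in Glut2L, 14.7 and 19.8 in Glut2H (-1.12), and the vesicle transporter gene Slc18a1, whose deposited locus runs past the gene, at 16.003 and 14.5 in Glut2L, 2.61 and 14.8 in Glut2H (-2.27). These were lower in Glut2L and higher in Glut2H after STZ. The synthesis enzymes Tph1, at 80.3 and 86.9 in Glut2L, 27.9 and 22.8 in Glut2H (0.39), and Tph2, at 23.2 and 9.99 in Glut2L, 0.808 and 0.233 in Glut2H (-0.59), did not share that pattern. Without the filter on low values the median over the list was -0.01.

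Immune genes were high in Glut2H and low in Glut2L in both treatments, and most differences of effects were small. Of 20 macrophage members 0 passed 1 in size (median 0.17), and 3 of 20 listed lymphocyte symbols were members. Chemokine and cytokine genes had 4 of 21 at 1 or more and 0 at -1 or lower. Il6 stood at 97.9 and 22.5 FPKM in Glut2H and 2.59 and 7.58 in Glut2L (3.33), and the macrophage chemokine gene Ccl9 at 89.4 and 58.1 in Glut2H, 0.525 and 7.34 in Glut2L (3.06). Ccl3 was at 72.4 and 25.8 in Glut2H, 0 and 0.656 in Glut2L (2.18). In each the Glut2H STZ library was below its control and the Glut2L STZ library above it, at much lower levels. Complement C3 did the same, at 136 and 51.01 in Glut2H, 5.16 and 12.4 in Glut2L (2.52). Retnla, a marker of alternatively activated macrophages, was higher after STZ in both, at 173 and 465 in Glut2H and 0 and 2.59 in Glut2L (0.42). The part of immune cells in these values was not tested.

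Vessel, matrix and stromal genes had medians below 0. The endothelial list stood at -0.53 over 10 members and turned to 0.12 with a pseudocount of 5. The stromal list stood at -0.61 over 19 (5 at -1 or lower, 3 at 1 or more), with -0.77 to -0.34 over the alternative settings and at least 0.5 in size in 8 of 12, and collagens, laminins and integrins at -0.39 over 22 (7 and 2). Most of these genes were low in Glut2L to begin with: the endothelial sum of 19 genes was 57.6 and 28.1 FPKM there and 383 and 326 in Glut2H, with Cldn5 and Sox17 at 0 in both Glut2L libraries. The stromal sum of 22 genes was 225 and 213 in Glut2L and 2631 and 2731 in Glut2H. Col4a2, a basement membrane collagen, stood at 10.04 and 2.17 in Glut2L and 92.6 and 125 in Glut2H (-2.23), in a locus that runs past the gene, and its neighbour Col4a1 at 19.9 and 7.13 in Glut2L, 154 and 202 in Glut2H (-1.76). Sparc, a matrix protein, was at 19.1 and 3.55 in Glut2L, 129 and 106 in Glut2H (-1.86). Each was at least 2-fold lower after STZ in Glut2L and not in Glut2H. Dcn, decorin of fibroblasts, was instead lower in Glut2H, at 92.8 and 45.1 against 1.16 and 2.24 in Glut2L (1.61), and the smooth muscle actin gene Acta2 higher there, at 6.402 and 22.4 against 0.887 and 0.707 (-1.80). The part of these cell types was not tested.

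Notch pathway genes went both ways. Notch receptors signal between neighbouring cells, and Hes1 is among their target genes. The median difference was 0.93 over 9 members, with 4 at 1 or more and 2 at -1 or lower. The receptor gene Notch1 stood at 82.4 and 5.87 FPKM in Glut2L and 17.3 and 28.7 in Glut2H (-4.30), and Notch4 at 9.59 and 0.133 in Glut2L, 6.43 and 19.8 in Glut2H (-4.71). Both receptor genes were lower after STZ in Glut2L and higher in Glut2H, although the span of Notch1 holds a small RNA gene and its deposited locus runs past the gene. The ligand-like gene Dlk1, at 8.57 and 23.7 in Glut2L, 5.58 and 2.02 in Glut2H (2.49), the target Hes1, at 15.9 and 25.4 in Glut2L, 19.8 and 16.01 in Glut2H (0.93), and Hes6, at 19.2 and 25.4 in Glut2L, 23.6 and 6.35 in Glut2H (2.13), were higher in Glut2L and lower in Glut2H. Of the symbols below the member rule, the receptor genes Notch2 (-0.08) and Notch3 (0.18) differed little, and the target genes Hey1 (-0.54), Heyl (-0.74) and Hes5 (-0.20) were below 0 and Hey2 (0.92) above, each of these 4 under 3 FPKM in every library. Without the filter on low values the list median was 0.16. Pancreatic progenitor genes had a median of 0.51 over 6 members, with 0.37 to 0.82 over the alternative settings and at least 0.5 in 8 of 12. They ranged from Cpa1, also an acinar enzyme, at 168 and 16.98 in Glut2L, 283 and 265 in Glut2H (-3.14), to Aldh1b1 at 0.4701 and 0.985 in Glut2L, 22.3 and 2.29 in Glut2H (3.26), which was high in the Glut2H control library alone.

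Some members of other signalling pathways had their effect mainly in Glut2L. In the TGF-beta and activin list, Smad7, an inhibitor of the pathway, stood at 3.05 and 20.02 FPKM in Glut2L and 41.2 and 39.2 in Glut2H (2.45), the activin subunit gene Inhba at 2.72 and 9.73 in Glut2L, 37.2 and 26.9 in Glut2H (1.98), and the target Id3 at 57.2 and 176 in Glut2L, 130.2 and 127 in Glut2H (1.64). These 3 were higher after STZ in Glut2L while the Glut2H libraries were close together, among 4 of 20 members at 1 or more and 3 at -1 or lower. In the insulin and IGF list Igf1 was at 0.294 and 5.81 in Glut2L, 57.6 and 46.7 in Glut2H (2.69), and the IGF2 receptor gene Igf2r at 31.2 and 62.1 in Glut2L, 44.7 and 21.005 in Glut2H (2.03), opposite in the gates, with 3 of 20 members at 1 or more and 2 at -1 or lower. The immediate early gene Nr4a2 was at 7.41 and 33.9 in Glut2L, 6.08 and 4.92 in Glut2H (2.31). Myc was lower after STZ in Glut2H only, at 62.6 and 20.8 against 11.5 and 11.1 in Glut2L (1.51). Wnt genes had 0 of 7 members past 1 in size.

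Histone genes had more differences above 0 than below it. Of 20 members 6 were at 1 or more and 1 at -1 or lower, against 11.2% and 11.9% of all members, with a median of 0.31. Hist1h4b stood at 2.78 and 43.6 FPKM in Glut2L and 11.2 and 9.73 in Glut2H (3.75), the linker histone gene Hist1h1a at 3.92 and 19.98 in Glut2L, 3.21 and 2.36 in Glut2H (2.42) and Hist1h2an at 12.9 and 31.6 in Glut2L, 14.9 and 0 in Glut2H (5.22). Core histone genes lie in clusters of near-identical copies, so single genes are uncertain. The variant gene H3f3a, which is not tied to DNA replication, was the lowest, at 36.4 and 17.4 in Glut2L, 26.4 and 70.6 in Glut2H (-2.41). Of 40 S phase and mitosis symbols only 7 were members, with 1 past 1 in size, the DNA polymerase gene Pola1 at 8.63 and 14.9 in Glut2L, 4.83 and 2.502 in Glut2H (1.46). The replication clamp gene Pcna was at 29.4 and 38.7 in Glut2L, 47.1 and 44.1 in Glut2H (0.48).

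Metabolic genes gave wide single contrasts but medians near 0. Glycolysis genes had 2 of 26 at 1 or more and 3 at -1 or lower (median -0.17). Hk1, a hexokinase that mature beta cells keep low, stood at 27.6 and 3.62 FPKM in Glut2L and 13.8 and 97.7 in Glut2H (-5.37), and Pdk1, which restrains pyruvate dehydrogenase, at 10.2 and 9.12 in Glut2L, 1.04 and 12.4 in Glut2H (-2.87). NAD genes, of the cofactor that STZ draws down, had a median of -0.00 over 12 members, from the NAD synthesis gene Nmnat3 at 1.999 and 0.484 in Glut2L, 1.79 and 11.2 in Glut2H (-3.14) to Parp3 at 3.51 and 8.94 in Glut2L, 41.7 and 7.802 in Glut2H (3.42). Citrate cycle subunits of 1 enzyme were on both sides: Idh3g was at 64.6 and 42.8 in Glut2L, 28.6 and 47.1 in Glut2H (-1.28), and Idh3b at 51.7 and 69.5 in Glut2L, 75.6 and 46.4 in Glut2H (1.11). Metallothioneins, which bind zinc and scavenge radicals, were lower after STZ mainly in Glut2L, with Mt1 at 862 and 327 in Glut2L, 975 and 891 in Glut2H (-1.26) and Mt2 at 725 and 266 in Glut2L, 1131 and 761 in Glut2H (-0.87). The ZIP zinc transporter genes Slc39a7, at 214 and 306 in Glut2L, 178 and 47.4 in Glut2H (2.40), and Slc39a11, at 11.2 and 29.5 in Glut2L, 16.4 and 5.12 in Glut2H (2.83), went opposite ways in the gates, both with a locus that runs past the gene. Of 16 cholesterol genes, Mvk, mevalonate kinase, was lowest at 15.3 and 1.31 in Glut2L, 6.62 and 5.63 in Glut2H (-2.61), and Tm7sf2 highest at 9.34 and 22.4 in Glut2L, 6.25 and 0.662 in Glut2H (3.30). The lipogenic transcription factor gene Mlxipl was at 18.1 and 8.88 in Glut2L, 3.5998 and 12.5 in Glut2H (-2.50).

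Single genes with the largest effect in Glut2L only are named next, by size. Those higher after STZ were Sowahc at 0.649 and 25.7 FPKM in Glut2L and 13.8 and 10.9 in Glut2H, Fam166a at 1.38 and 35.2 in Glut2L, 1.19 and 0.697 in Glut2H, and Hist1h4b, given above. They were followed by Syt12, a synaptotagmin, at 0.327 and 13.2 in Glut2L, 0.357 and 0.1299 in Glut2H, Sap25 at 0.765 and 13.3 in Glut2L and listed at 0 in both Glut2H libraries, and Nsun3, an RNA methyltransferase of mitochondria, at 1.698 and 20.6 in Glut2L, 7.36 and 10.5 in Glut2H. In Fam166a, Syt12 and Sap25 the deposited locus runs past the annotated gene. Those lower after STZ in Glut2L only were Msrb1, a selenoprotein that repairs oxidised methionine, at 29498 and 285 in Glut2L, 1132 and 1369 in Glut2H (-6.96), Kctd15 at 76.6 and 1.64 in Glut2L, 1.01 and 0.5604 in Glut2H (-4.52), and the acinar genes Clps, Ctrl, Cel and Zg16. Zg16, of the zymogen granule, stood at 201 and 8.03 in Glut2L, 219.8 and 169.8 in Glut2H (-4.12). So 4 of these 6 belong to the acinar list.

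Those higher in Glut2H only were Eps8l1, an actin regulator, at 0.646 and 47.3 FPKM in Glut2H and 4.97 and 4.63 in Glut2L, Zfp93 at 0.775 and 28.5 in Glut2H, 0.9903 and 0.8895 in Glut2L, and Gtf2h2, a subunit of the TFIIH complex of transcription and repair, at 3.399 and 48.2 in Glut2H, 7.196 and 7.39 in Glut2L. Smim4 was at 3.004 and 33.1 in Glut2H, 27.9 and 24.97 in Glut2L, Bpnt1 at 10.1 and 75.1 in Glut2H, 41.6 and 39.1 in Glut2L and the nuclease gene Dnase1 at 0.807 and 11.3 in Glut2H, 1.01 and 1.32 in Glut2L. In each of the 6 the Glut2H control library was the lowest of the 4 and the Glut2H STZ library the highest. Besides the hemoglobins, those lower in Glut2H only were Slc22a18 at 21.7 and 0 in Glut2H and listed at 0 in both Glut2L libraries, Tmem143 at 34.3 and 0.585 in Glut2H, 2.996 and 4.34 in Glut2L, the drug efflux pump gene Abcb1a at 42.8 and 1.603 in Glut2H, 0.787 and 0.708 in Glut2L, and Spa17 at 13.4 and 0 in Glut2H, 13.9 and 12.6 in Glut2L. Spa17 was at a like level in 3 libraries and listed at 0 in Glut2H STZ.

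Of the genes with opposite effects, the 12 named by the rule are those with the largest smaller effect. In all 12 the order of the gates turned after STZ, which a choice by wide opposite effects favours, so it is a description. Higher in Glut2L and lower in Glut2H were Mpped2 at 0.652 and 7.82 FPKM in Glut2L and 11.7 and 0.494 in Glut2H (5.50), the leukocyte adaptor gene Lcp2 at 0.0957 and 11.4 in Glut2L, 16.2 and 2.56 in Glut2H (5.76), and the synaptic scaffold gene Shank3 at 0.343 and 4.93 in Glut2L, 11.2 and 0.745 in Glut2H (4.95). So were Bcam, a laminin receptor, at 5.11 and 26.95 in Glut2L, 24.01 and 5.195 in Glut2H (4.21), Fam107b at 25.5 and 106 in Glut2L, 104 and 16.03 in Glut2H (4.62), and Insl6, of the insulin-like family, at 0 and 2.999 in Glut2L, 11.9 and 2.04 in Glut2H (4.08). In each of the 6 the Glut2H control library was above the Glut2L control and the Glut2H STZ library below the Glut2L STZ library. Of the reverse kind were Fam154b at 13.4 and 0.666 in Glut2L, 0.257 and 11.3 in Glut2H (-6.41), Txnrd3, a thioredoxin reductase and selenoprotein, at 2771 and 612 in Glut2L, 201 and 3669 in Glut2H (-6.36), and Engase, a glycosidase, at 5.25 and 0.419 in Glut2L, 1.45 and 22.9 in Glut2H (-5.42). Hk1, given above, Zfp26 at 17.7 and 3.82 in Glut2L, 5.15 and 35.3 in Glut2H (-4.52) and Sh3bp5l at 87.5 and 19.1 in Glut2L, 18.1 and 71.9 in Glut2H (-4.08) completed them. In each of these the Glut2L control library was above the Glut2H control and the Glut2L STZ library below the Glut2H STZ library. Among opposite genes, 33.0% had a deposited locus that runs past the gene, against 25.3% of the members with no difference of 1 in size. Over all members, 13.8% have a small RNA gene within their span and 26.6% a deposited locus that runs past the gene. Of the genes given with values, the former holds for Clps, Dnaja1, C3, Notch1, Hist1h2an, Pola1, Zg16, Mpped2, Iars and Unc13a. The latter holds for Slc2a2, Cel, Cela2a, Dda1, Alkbh3, Atp5o, Ddit3, Psmd13, Psmb9, Dnaja1, Irf9, Tap2, Pdx1, Ttr, Slc18a1, Col4a2, Col4a1, Notch1, Igf1, Igf2r, Hist1h4b, H3f3a, Parp3, Idh3b, Slc39a7, Slc39a11, Tm7sf2, Fam166a, Syt12, Sap25, Kctd15, Eps8l1, Smim4, Dnase1, Lcp2, Bcam, Zfp26, Unc13a, Angpt2 and Ctgf.

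The deposited intervals, whose level is not stated, leave far fewer genes. The intervals of control and STZ were apart in Glut2L for 27 members, of which 19 were acinar, and in Glut2H for 28, of which 6 were immunoglobulin and 2 hemoglobin genes. They were apart in both gates for 2, the gastrin gene Gast at 23.8 and 1.06 FPKM in Glut2L and 10.2 and 0 in Glut2H, and Lars2, a mitochondrial leucyl-tRNA synthetase, at 41.2 and 1.74 in Glut2L, 169 and 6.296 in Glut2H, both lower after STZ in both gates. Of the p53 list, 0 were apart in either gate. Of the opposite genes named by rule, Shank3 was apart in Glut2H and Insl6 in Glut2L, and the others in neither gate. Msrb1, Kctd15, Sowahc and Notch1 were not apart in either gate, despite their wide effects. Among the 53 genes apart in at least 1 gate, 21 had a difference of 1 or more and 28 of -1 or lower. The immunoglobulin and hemoglobin genes are members through the Glut2H control library alone, so their count here also supports nothing.

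Wide differences were more common at low levels. A difference of at least 1 in size was found for 40.4% of the lowest of 5 equal groups by mean log2 level, at a median of 7.78 FPKM, and for 20.1%, 20.5%, 20.5% and 13.6% of the next groups, up to a median of 72.9 FPKM. It was found for 42.4% of the 1229 genes that reached 10 FPKM in 1 library, and for 13.5% of the 3940 that reached it in all 4. A gene that is a member through 1 library had to differ between libraries. Just inside the limit of 10 FPKM were Cntrob (10.002 FPKM in the Glut2L control, -1.28) and Dnaic1 (-1.69), and just outside it Stmn1 (9.997 in Glut2L STZ, 3.00) and Elac2 (-0.33).

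**Figure D5:**
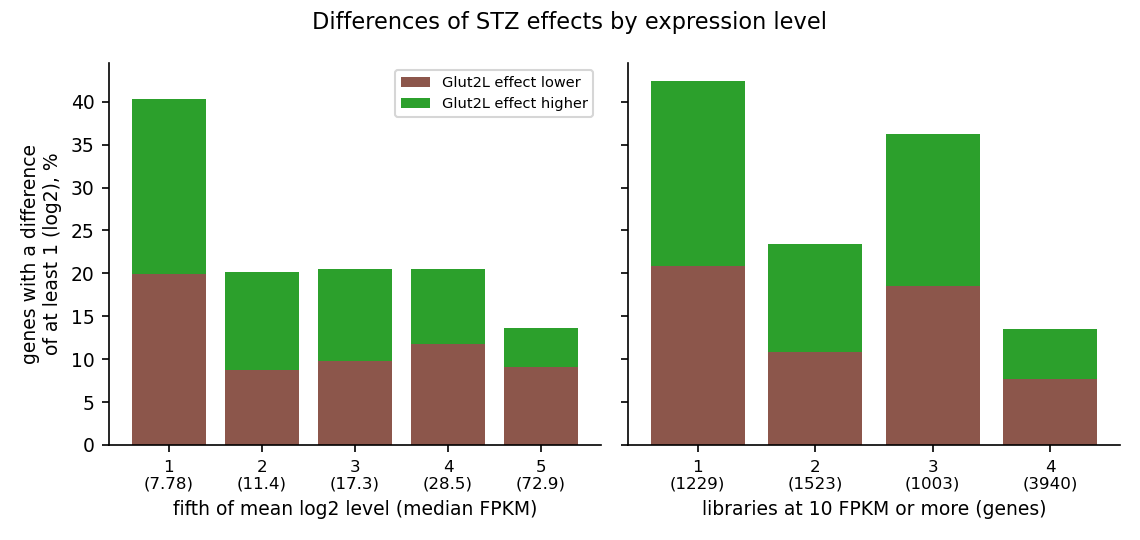
Percentage of members with a difference of STZ effects of at least 1 in size, split into Glut2L effects that were lower and higher, in 5 equal groups by mean level (left) and by the number of libraries at 10 FPKM or more (right). The bars are tallest in the lowest level group (40.4%) and for genes that reach 10 FPKM in 1 library (42.4%), and shortest for genes that reach it in all 4 (13.5%).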

How the data were processed

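Total RNA of 4 sorted populations was sequenced, 1 library each. Per the submitters' processing notes, the authors used TopHat2, SAMtools and Cuffdiff on GRCm38 (mm10). The sources used here give no versions or library normalization. Deposited by the authors were FPKM per gene and library with interval bounds and a status, per the file headers, and the authors' separate tables of the 4 samples held the same values (156680 compared, 0 different). Rows were matched by Ensembl ID to GENCODE M21 on GRCm38, for 7655 of 7695 members (the other 40 have no annotation here), and upstream sequences are from RefSeq on GRCm38.p6.

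STZ effects were computed per gate with a pseudocount of 1 FPKM (Python 3.11.15, pandas 2.3.3, numpy 2.4.6, figures with matplotlib 3.10.9), on a scale that understates changes of low genes. No test was run, since each group has 1 library. The script was tested on simulated data. Members and gene lists were chosen with earlier results of these data known. The naming rule took, among protein-coding members, the 6 with the largest effect in each single-gate class and direction, the 6 with the largest smaller effect in each opposite class, the 2 highest and 2 lowest differences of each list (all members of lists of up to 8), and Slc2a2, Ins1 and Ins2. Other members named in the text were chosen after their values were seen, and some genes of the rule are given by list counts. A locus was called past its gene where it is more than 5% longer than the annotated span. Read depth is unknown, so no counting interval can be given. Alternatives varied the pseudocount, the filter on low values, scaling, fold, gene set and intervals.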

Additional observations from a re-analysis of the deposited data

Results flagged for a closer look

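Of the 558 genes with opposite effects in the gates, 12 were named by rule, and their values stand here with those of 2 gene lists. With 1 library per group, the difference between the gates was not tested in any of them. Of the 12 genes, only Shank3 and Insl6 had deposited intervals of control and STZ that were apart in a gate. Higher after STZ in Glut2L and lower in Glut2H were Mpped2 (difference 5.50), Lcp2 (5.76), Shank3 (4.95), Bcam (4.21), Fam107b (4.62) and Insl6 (4.08). Of these, Fam107b had the highest levels, at 25.5 and 106 FPKM in Glut2L and 104 and 16.03 in Glut2H, and Insl6 was listed at 0 in the Glut2L control. The span of Mpped2 holds a small RNA gene, and the deposited loci of Lcp2 and Bcam run past the gene. The reverse was found for Fam154b (-6.41), Hk1 (-5.37), Txnrd3 (-6.36), Engase (-5.42), Zfp26 (-4.52) and Sh3bp5l (-4.08). Txnrd3 had the highest levels, at 2771 and 612 FPKM in Glut2L and 201 and 3669 in Glut2H.

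Of the 6 lists with a median difference of at least 0.5 in size, 2 had medians of opposite sign and at least 0.1 in size in both gates. Pancreatic progenitor genes had a median difference of 0.51, from 0.38 in Glut2L and -0.13 in Glut2H over 6 members, and serotonin pathway genes one of -1.12, from -0.50 and 0.40 over 5 members. All 12 genes were picked for opposite effects, so their signs are a description.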

How the results depend on the processing

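No paired analysis was possible because each group has 1 library. The only match between libraries in the labels is the replicate number, 1 in every group. Both gates of a treatment were sorted from mice of that treatment. Because each group has 1 library, no library could be left out. The alternatives left the acinar contrast in place (12 of 12 with a median of -0.5 or lower), and counts of genes moved with the cut-offs. The count of genes with a difference of 1 or more (859) was 541 with a pseudocount of 5, 571 with a mean of at least 10 FPKM, 2172 with no filter on low values, 1436 with FPKM rescaled to an equal sum over the members, 383 at 3-fold and 21 with intervals apart. The count at -1 or lower (913) was 1846 with no filter, 574 rescaled, 404 at 3-fold and 28 with intervals apart. Genes responding in Glut2L only (343) numbered 210 with a pseudocount of 5, 823 with no filter and 131 at 3-fold. Those in Glut2H only (440) numbered 291 with a pseudocount of 5, 287 with 10 FPKM in 2 or more libraries, 278 with a mean of at least 10 FPKM, 1091 with no filter and 143 at 3-fold. Genes with opposite effects (558) numbered 334 with a pseudocount of 5 and 1209 with no filter. Without genes whose span holds a small RNA gene or whose locus runs past the gene, an alternative chosen after seeing the data that leaves 4857 genes, the counts were 529, 538, 209, 266 and 322 in the same order. The smaller gene sets hold fewer genes by construction; for the rest the cause was not tested. The endothelial median turned from -0.53 to 0.12 with a pseudocount of 5, and was at -0.5 or lower in 7 of 12. The stromal and pancreatic progenitor medians reached 0.5 in size in 8 of 12, and the serotonin and Notch medians in 11 of 12. Of 2663 named-gene values under alternatives, 140 moved by 0.5 or more. No gene with a difference of at least 1 in size reversed sign. Sign changes of smaller differences were not counted. Equal sums over all rows and centring within 5 groups of transcript length were also chosen after seeing the data. Depth is unknown, and low genes carry the widest differences.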

Other observations

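Other gene groups had small differences of effects. Vesicle docking and exocytosis genes had a median of -0.11 over 23 members, with Unc13a, which primes vesicles for release, at 42.99 and 21.6 FPKM in Glut2L and 11.9 and 25.04 in Glut2H (-1.98), whose span holds a small RNA gene and whose deposited locus runs past the gene, and Stxbp2, a syntaxin-binding protein, at 106 and 78.6 in Glut2L, 112 and 35.1 in Glut2H (1.22). Lysosome and autophagy genes had -0.19 over 29 members, with the cathepsin gene Ctsh at 4.65 and 3.35 in Glut2L, 55.99 and 116 in Glut2H (-1.42). Antioxidant genes had 0.13 over 24, with the mitochondrial thioredoxin gene Txn2 at 135 and 73.9 in Glut2L, 60.98 and 117 in Glut2H (-1.79). Aminoacyl-tRNA synthetases had 0.06 over 20, with the isoleucine enzyme gene Iars at 66.4 and 64.8 in Glut2L, 65.5 and 17.98 in Glut2H (1.77), whose span holds a small RNA gene. Duct genes had -0.08 over 11 members, with the keratin gene Krt19 at 16.7 and 34.3 in Glut2L, 18.9 and 15.1 in Glut2H (1.30). Of 12 nuclear long noncoding RNAs, 0 passed 1 in size.

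The angiogenic genes Angptl4, at 14.1 and 2.88 FPKM in Glut2H and 0.0638 and 0.362 in Glut2L (2.31), and Angpt2, at 29.3 and 15.9 in Glut2H, 2.34 and 4.16 in Glut2L (1.47), were lower after STZ in Glut2H. The connective tissue growth factor gene Ctgf was higher there, at 54.9 and 158 in Glut2H and 3.15 and 3.27 in Glut2L (-1.46). The deposited loci of Angpt2 and Ctgf run past the gene. Socs3, a feedback inhibitor of cytokine signalling, was at least 2-fold lower in both gates, at 208 and 100.4 in Glut2L and 47.3 and 8.23 in Glut2H (1.34).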
